A study of Homo sapiens with 15 samples.

Results

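MHC class I antigen presentation was followed here through 9 genes: the class I heavy chains HLA-B, HLA-C and HLA-E, the light chain B2M, the peptide transporter subunits TAP1 and TAP2, the loading factor TAPBP, and the immunoproteasome subunits PSMB8 and PSMB9. They were found on the array by the RefSeq accession that each probe carries, which gave 13 probes for these 9 of the 19483 genes that could be named on the array. The study transfected PE/CA-PJ41, an immortalised human oral squamous carcinoma cell line, with pCMV6-Neo plasmid, and compared the transcriptome of cells that received the human cytoglobin (CYGB) cDNA with that of cells labelled as carrying the empty vector, which some captions of the study call untransfected. Both groups were grown in the same supplemented RPMI1640 medium and kept in it for 1 day before RNA extraction, stable clones were selected in G418, and the methods name 1 cytoglobin clone for the arrays. RNA was extracted on 3 separate occasions, so a p-value here measures only the spread between these samples. The empty vector group (NCE) had 3 biological replicates of 3 arrays each and the group labelled CYGB+ had 3 biological replicates of 2 arrays each. Values are log2 of the green (Cy3) spot intensity after quantile normalization over the 15 arrays, the arrays of a replicate were averaged before any comparison, and a fold change is CYGB+ minus NCE on the log2 scale.

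Class I molecules display short peptides from inside the cell to CD8 T cells. Proteasomes cut the peptides, among them the immunoproteasome, in which inducible catalytic subunits take the places of the constitutive ones; the TAP transporter carries them into the endoplasmic reticulum, and tapasin holds empty heavy chains with B2M near the transporter until a peptide binds. The pathway is induced by interferon-gamma and is often reduced in squamous carcinomas of the head and neck.

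The transfected gene was examined first. CYGB read 12.85, 13.16 and 12.96 in NCE replicates 1, 2 and 3, and 12.37, 13.42 and 13.01 in the libraries labelled CYGB+. The groups overlapped, with a log2 fold change of -0.05 (95% interval -0.67 to 0.56, limma adjusted p = 0.915), so this probe did not separate the libraries by their label. The position of the CYGB probe relative to the transfected cDNA was not given in the sources used here. Whether the probe reads the RNA of the transgene, and why the groups overlapped, was not tested. Squamous epithelial markers were well above background on every array for 10 of 10 genes, including KRT5, KRT14 and TP63. Of 9 leukocyte markers, 4 were well above background on no array (MS4A1, LCP2, CD48 and CD53), and the summed intensity of the 9 markers was 552, 427 and 656 in NCE and 596, 377 and 368 in CYGB+, with CD14 the brightest. Fibroblast markers summed to 1989, 2147 and 1975 in NCE and 2050, 2641 and 3270 in CYGB+, with FAP the brightest and COL3A1, LUM and PDGFRB on no array. Of 6 endothelial markers, 0 were well above background on every array; CDH5 was the brightest and TEK was on no array.

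One array stood apart before any gene was compared. Array 1 of CYGB+ replicate 1 differed from array 2 of the same replicate by a median of 0.66 on the log2 scale, with 30.3% of the tested probes more than 1 log2 unit apart. Between the array repeats of the other replicates the median difference was 0.099 to 0.36. For the 9 genes the gap between these 2 arrays ranged from -0.87 for HLA-E and PSMB8 to 1.03 for HLA-B, so this array was higher than its repeat for some class I genes and lower for others. Its deviations from the probe means correlated at 0.037 with those of array 2; array 2 of NCE replicate 3 was as low against its repeats (0.039), so the low correlation was not particular to this array. Whether arrays of a replicate hold the same RNA was not tested. The brightest probe of each of the 9 genes is also given without it below, as are most other results. The arrays lay on 2 slides: slide 1 held 8 NCE arrays, and slide 2 held array 3 of NCE replicate 1 and all 6 CYGB+ arrays. For NCE replicate 1, the only replicate with arrays on both slides, the 9 genes differed between slides by -0.19 (HLA-E) to 0.19 (TAP2), with a median of 0.07 against 0.07 over all tested probes.

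**Figure D1:**
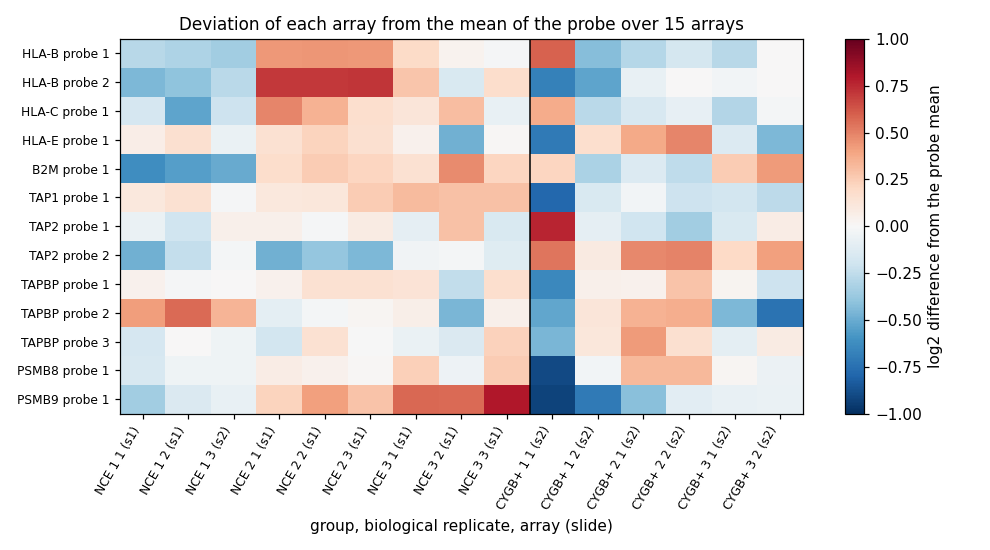
Deviation of each of the 13 probes (rows) from its own mean over the 15 arrays, in log2 units by colour, with arrays in columns by group, biological replicate, array and slide (s1, s2) and a black line between the groups. Array 1 of CYGB+ replicate 1 is high for HLA-B probe 1 (14.66) and TAP2 probe 1 (11.37) and low for TAP1 (10.88) and PSMB8 (9.0).

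The question for the 9 genes was whether their expression differed between the libraries labelled NCE and those labelled CYGB+. Represented by its brightest probe, no gene of the 9 was called by limma at an adjusted p under 0.05: 0 of 9 were higher in CYGB+, where 6.12% of the 12144 genes tested were called higher, and 0 of 9 were lower, where 6.05% were called lower. Without adjustment, 2 of 9 had a p under 0.05 (TAP1 and PSMB9), both with lower means in CYGB+, where 3605 of the 12144 genes tested did. A t-test gave 1 of 9 without adjustment. By probe it gave 2 of 13, where it gave 4998 of all 19785 probes tested. After adjustment the t-test gave 0 of 9 genes and 0 of 13 probes, where it gave 826 of the 19785 probes. The median log2 fold change of the 9 genes was -0.13, against 0.00 over all genes tested, and it was -0.07 with slide as a block, -0.02 on slide 2 alone and -0.13 without the array that stood apart. After scaling to the 75th percentile the median was 0.03, where that of all genes was 0.07. With slide as a block, 0 of 9 were called higher (1.66% of all genes) and 0 lower (2.59%), and without the array that stood apart 0 were called higher (10.4%) and 0 lower (10.8%). With the replicate block, 0 of 9 were called higher (8.58%) and 1 lower (8.64%), and with normexp background correction 0 were called higher (6.76%) and 1 lower (6.98%). No gene of the 9 had all 3 CYGB+ replicates above all 3 of NCE, where 18.7% of genes did, and 1 had them all below, where 18.5% did. Counted by probe, 1 of 13 was called higher, where 6.26% of the 19785 probes tested were called higher, and 0 of 13 were called lower, where 5.37% were. All 13 probes were well above background on all 15 arrays.

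**Figure D2:**
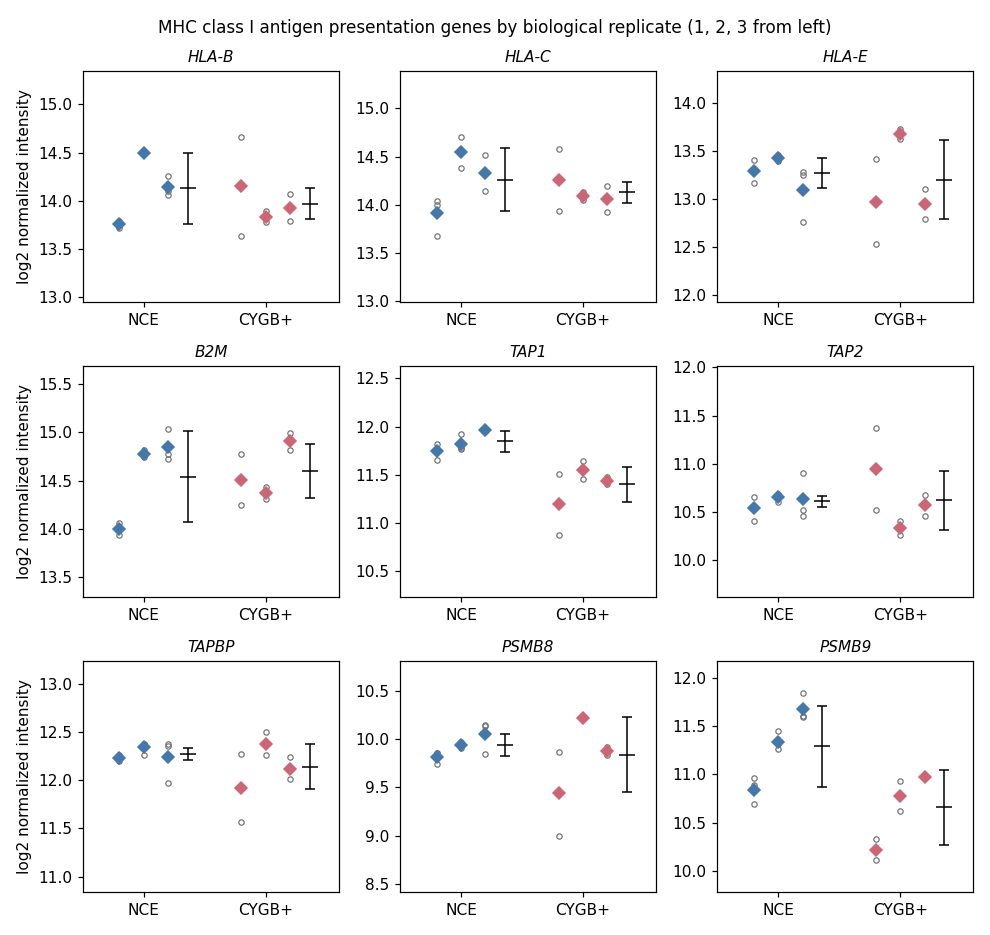
Log2 normalized intensity of the brightest probe of each gene, with open circles for single arrays, diamonds for biological replicates 1 to 3 from left to right, and bars for the group mean and SD over 3 replicates; each panel spans the same number of log2 units. TAP1 is the only panel in which the 3 CYGB+ replicates (11.20 to 11.55) all lie below the 3 NCE replicates (11.75 to 11.97).

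HLA-B and HLA-C, classical heavy chains that present peptides to CD8 T cells, were among the genes with the widest spread between NCE replicates. HLA-B read 13.76, 14.50 and 14.14 in NCE replicates 1, 2 and 3 and 14.15, 13.83 and 13.93 in CYGB+. The CYGB+ replicates lay inside the range of NCE, whose first replicate was the lowest of the 6. HLA-B had a log2 fold change of -0.16 (95% interval -0.66 to 0.34, adjusted p = 0.656), which was 0.10 with slide as a block, 0.25 on slide 2 alone and -0.33 without the array that stood apart. A further HLA-B probe gave -0.36 (adjusted p = 0.456).

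HLA-C read 13.91, 14.55 and 14.33 in NCE and 14.26, 14.09 and 14.06 in CYGB+. Its CYGB+ replicates again fell between the NCE extremes. The log2 fold change was -0.13 (95% interval -0.58 to 0.33, adjusted p = 0.707), and it was -0.03 with slide as a block, 0.13 on slide 2 alone and -0.23 without that array. For both genes the sign turned on scaling to the 75th percentile (0.03 for HLA-B and 0.07 for HLA-C), where the median of all genes tested was 0.07. Heavy chain genes share long stretches of near-identical sequence, so a probe named for HLA-B or HLA-C may also read its relatives, and the values are uncertain for that reason.

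The windows upstream of HLA-B and HLA-C are shown because these genes had the highest correlation of any pair among the 9 (below). RefSeq promoters (GRCh38.p14, 250 bases before to 50 after a start) were found for 8 of the 9 genes, in 10 windows. In capitals are matches on either strand to GAAA, any 2 bases and GAAA, the interferon-stimulated response element type, or to GGG, any 2 bases, TT, any base and CC, the kappa B type.
HLA-B, chr6:31357130-31357429, minus strand: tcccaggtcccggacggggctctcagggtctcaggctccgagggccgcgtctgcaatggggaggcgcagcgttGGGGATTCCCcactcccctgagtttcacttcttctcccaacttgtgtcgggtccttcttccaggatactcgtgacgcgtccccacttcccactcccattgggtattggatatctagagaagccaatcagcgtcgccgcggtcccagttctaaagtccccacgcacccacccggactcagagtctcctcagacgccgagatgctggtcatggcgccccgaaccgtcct
HLA-C, chr6:31272043-31272342, minus strand: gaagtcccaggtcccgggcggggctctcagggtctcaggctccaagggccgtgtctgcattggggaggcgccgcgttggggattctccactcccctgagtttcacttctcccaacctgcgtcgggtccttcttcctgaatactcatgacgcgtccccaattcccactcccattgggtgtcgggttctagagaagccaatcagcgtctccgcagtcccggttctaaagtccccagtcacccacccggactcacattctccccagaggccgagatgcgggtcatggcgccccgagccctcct
The HLA-B window held 1 kappa B type match, and neither motif was found in the HLA-C window. Of all 35116 promoters of 300 bases, 5.68% held the kappa B type and 3.57% the interferon type. The CCAAT box, searched as CCAAT, occurred 3 times in the HLA-B window and 4 times in that of HLA-C, and in 34.6% of all promoters.

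HLA-E, a nonclassical heavy chain that is read by NKG2 receptors of natural killer cells, read 13.29, 13.42 and 13.09 in NCE and 12.97, 13.67 and 12.95 in CYGB+. The highest and the lowest replicate were both in CYGB+. Its log2 fold change was -0.07 (95% interval -0.60 to 0.46, adjusted p = 0.864), with 0.06 under the slide block, 0.03 on slide 2 alone and 0.07 without the array that stood apart; the sign turned on scaling to the 75th percentile as well (0.11).

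B2M, the light chain that every class I heavy chain needs to reach the cell surface, read 14.00, 14.78 and 14.85 in NCE and 14.51, 14.37 and 14.91 in CYGB+. NCE replicate 1 was low and the other 5 replicates lay within 14.37 to 14.91. The log2 fold change of 0.05 (95% interval -0.55 to 0.66, adjusted p = 0.914) was smaller than the spread between NCE replicates (SD 0.47). It was 0.30 with slide as a block, 0.53 on slide 2 alone, where the NCE value came only from replicate 1, and -0.03 without the array that stood apart.

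TAP1, the first subunit of the peptide transporter, separated the groups. It read 11.75, 11.82 and 11.97 in NCE and 11.20, 11.55 and 11.44 in CYGB+. All 3 CYGB+ replicates were below all 3 NCE replicates, as in 1 of the 9 genes; over all genes tested, 18.5% had every CYGB+ replicate below every NCE replicate. The group means were 11.85 ± 0.11 (SD) in NCE and 11.40 ± 0.18 (SD) in CYGB+. The log2 fold change was -0.45 (95% interval -0.82 to -0.08, limma adjusted p = 0.112), 0.732 times the NCE level, and it was not called. With normexp background correction it was -0.49 and called (limma adjusted p = 0.0336, against 0.711 with slide as a block). The value was -0.28 with slide as a block (95% interval -0.75 to 0.20), -0.25 on slide 2 alone and -0.35 without the array that stood apart (adjusted p = 0.0823).

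TAP2, the partner subunit, was measured by 2 probes that disagreed. The brighter probe read 10.54, 10.65 and 10.63 in NCE and 10.95, 10.33 and 10.57 in CYGB+. NCE lay inside the CYGB+ range, with a log2 fold change of 0.01 (95% interval -0.42 to 0.45, adjusted p = 0.977); the sign turned with slide as a block (-0.09), on slide 2 alone (-0.05) and without the array that stood apart (-0.13). The dimmer probe read 6.27, 6.08 and 6.46 in NCE and 6.83, 7.01 and 6.82 in CYGB+. Here every CYGB+ replicate was higher, and the log2 fold change of 0.62 (95% interval 0.24 to 0.99) was called with an adjusted p = 0.0487. That call was lost in all 6 fits that left out 1 replicate (adjusted p = 0.06 to 0.192, log2 fold change 0.52 to 0.71), with the replicate block (adjusted p = 0.0518) and with slide as a block (0.36, adjusted p = 0.536); on slide 2 alone the value was 0.39, and without the array that stood apart it was 0.54 (adjusted p = 0.0482). With normexp background correction it was 0.19 (adjusted p = 0.261).

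TAPBP encodes tapasin, which holds heavy chains at the transporter. Its brightest probe read 12.23, 12.34 and 12.24 in NCE and 11.92, 12.38 and 12.12 in CYGB+. The NCE replicates lay close together (SD 0.06) inside the wider CYGB+ range. The log2 fold change was -0.13 (95% interval -0.51 to 0.26, adjusted p = 0.656), -0.10 with slide as a block, -0.08 on slide 2 alone, -0.01 without the array that stood apart and 0.01 on scaling to the 75th percentile. Its other 2 probes gave -0.25 (adjusted p = 0.583) and 0.06 (adjusted p = 0.833).

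PSMB8, an inducible catalytic subunit of the immunoproteasome, read 9.82, 9.94 and 10.05 in NCE and 9.44, 10.22 and 9.88 in CYGB+. The lowest and the highest replicate were again both in CYGB+, the lowest being replicate 1. The log2 fold change was -0.09 (95% interval -0.59 to 0.41, adjusted p = 0.817), with -0.07 under the slide block, -0.02 on slide 2 alone and 0.05 without the array that stood apart.

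PSMB9, another inducible catalytic subunit, read 10.84, 11.34 and 11.68 in NCE and 10.22, 10.78 and 10.97 in CYGB+. CYGB+ replicates 1 and 2 were below every NCE replicate, and replicate 3 lay just above the lowest of them. The log2 fold change was -0.64 (95% interval -1.27 to -0.01, limma adjusted p = 0.17), 0.644 times the NCE level, and -0.86 to -0.42 when 1 replicate was left out. Deviations of same-numbered replicates from their group means correlated between the groups at only 0.24 to 0.329. NCE replicate 2 was most like CYGB+ replicate 3 and not 2. With the replicate block PSMB9 was called (limma adjusted p = 0.0341), as 1 of the 9 genes, where 8.64% of genes tested were called lower. It was -0.51 with slide as a block (95% interval -1.26 to 0.25), -0.31 on slide 2 alone and -0.60 without the array that stood apart (adjusted p = 0.129).

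**Figure D3:**
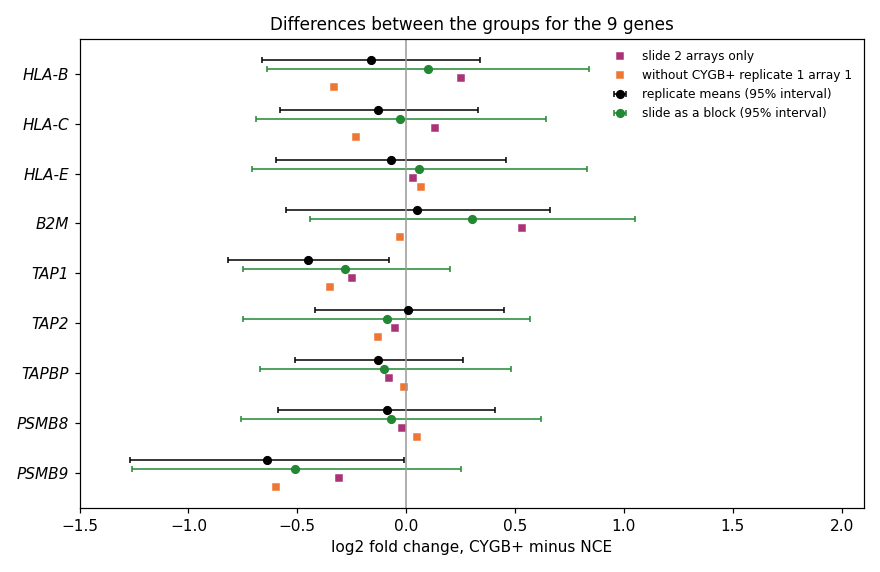
Log2 fold change (CYGB+ minus NCE) of the brightest probe of each gene, with 95% intervals for the fit on replicate means (black) and with slide as a block (green), and values without an interval for slide 2 arrays alone (purple) and without array 1 of CYGB+ replicate 1 (orange). TAP1 (-0.45) and PSMB9 (-0.64) are the only genes whose black interval lies below 0, and both green intervals include 0.

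TAP1 and PSMB9 are neighbours that are transcribed away from each other. Their start sites in RefSeq lie 488 bases apart and their windows share 13 bases, and they are shown for that reason, with the same motifs in capitals.
TAP1, chr6:32853655-32853954, minus strand: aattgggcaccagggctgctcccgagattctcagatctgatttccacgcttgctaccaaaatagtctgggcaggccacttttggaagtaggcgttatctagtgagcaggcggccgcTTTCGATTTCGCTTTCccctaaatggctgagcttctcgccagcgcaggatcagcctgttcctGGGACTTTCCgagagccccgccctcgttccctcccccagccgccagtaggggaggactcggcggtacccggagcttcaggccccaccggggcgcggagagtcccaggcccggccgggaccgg
PSMB9, chr6:32853942-32854241, plus strand: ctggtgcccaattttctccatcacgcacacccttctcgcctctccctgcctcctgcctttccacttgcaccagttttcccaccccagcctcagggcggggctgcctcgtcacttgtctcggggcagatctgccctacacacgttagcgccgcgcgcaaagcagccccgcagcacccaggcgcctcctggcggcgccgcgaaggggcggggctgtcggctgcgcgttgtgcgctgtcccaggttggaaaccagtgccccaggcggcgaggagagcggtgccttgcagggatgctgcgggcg
The TAP1 window held 2 matches of the interferon type, which overlap each other, and 1 of the kappa B type. Neither type was found in the PSMB9 window. The TAP1 matches lie between the start sites but outside the 13 shared bases, so the PSMB9 window was too short to hold them. Among the 8 genes with a window, 5 had a match of the interferon type (TAP1, TAP2, TAPBP, PSMB8 and B2M) and 4 one of the kappa B type (TAP1, TAPBP, HLA-B and B2M). TAP1 and PSMB8 each had a second window, which is not printed. The gamma-activated type (TTC, any 3 bases, GAA) was found for 2 genes, PSMB8 and TAP1, for TAP1 only in the window not printed (7.66% of all promoters), and the GC box GGGCGG for 6 (45% of all promoters). A match describes letters in the window and nothing about binding.

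Across the 6 biological replicates the 9 genes did not move as a block. Among the 36 pairs, Pearson r was above 0.9 for 3: HLA-B with HLA-C (0.97), TAP1 with PSMB9 (0.91) and TAPBP with PSMB8 (0.91). A probe named for HLA-B or HLA-C may also read the other gene, and the r of that pair is uncertain for that reason. The lowest r was that of TAP2 with PSMB8 (-0.89). These values are a description over 6 replicates that share the 2 groups and include the array that stood apart. Over the 15 single arrays, which are repeats and not independent, r was 0.89, 0.79, 0.87 and -0.87 for the same pairs. Over the 14 arrays without the one that stood apart it was 0.87, 0.71, 0.59 and -0.57. Averaged after centring each gene, the 9 genes stood at -0.13, 0.22 and 0.18 in NCE replicates 1, 2 and 3 and at -0.19, -0.01 and -0.06 in CYGB+. NCE replicate 1 therefore lay nearer the CYGB+ replicates than NCE replicates 2 and 3. The genes outside the 9 whose pattern over the 6 replicates was most like this mean were SRSF7 (r = 0.987), TSTD2 (0.984), THAP5 (0.983), AMIGO2 (0.98) and ADCY6 (0.975), and none of these 5 was called (adjusted p = 0.274 to 0.525).

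Lists of genes of the same steps, which also hold the 9 genes, showed where calls did occur. The peptide transport and loading list included B2M, TAP1, TAP2 and TAPBP. Of 12 tested genes of peptide transport and loading, 2 rose and 0 fell, with a median log2 fold change of 0.00; 6.12% of all genes were called higher. Without the array that stood apart 3 were called higher (10.4% of all genes) and 0 lower, with a median of -0.02, with slide as a block 0 were called, and with the replicate block 3 were called higher (8.58%). CANX encodes calnexin, the chaperone that folds new heavy chains. It read 10.93, 11.15 and 11.34 in NCE and 12.06, 11.80 and 11.95 in CYGB+, so every CYGB+ replicate was higher. Its log2 fold change of 0.79 (adjusted p = 0.0259) was 0.77 with slide as a block (adjusted p = 0.275), 0.88 on slide 2 alone and 0.63 without the array that stood apart (adjusted p = 0.0294), and 2 of the 6 fits that left out a replicate kept the call (highest adjusted p = 0.102, without NCE replicate 2). ERAP2, an aminopeptidase that trims peptides in the endoplasmic reticulum, read 11.54, 11.20 and 11.71 in NCE and 12.06, 12.38 and 12.16 in CYGB+. Its log2 fold change of 0.72 (adjusted p = 0.0464) was 0.32 with slide as a block (adjusted p = 0.724) and 0.34 on slide 2 alone. It was 0.66 without the array that stood apart (adjusted p = 0.0415). ERAP2 kept its call in 1 of the 6 fits that left out a replicate (highest adjusted p = 0.172, without NCE replicate 2). The call was also lost with normexp background correction (0.59, adjusted p = 0.0511) and before dye normalization (0.61, adjusted p = 0.0788). With the fold unchanged, it was lost with no filter on dim probes (adjusted p = 0.0973) and with a t-test (adjusted p = 0.113).

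Of the 8 genes of the immunoproteasome and its activators, PSMB8 and PSMB9 among them, 0 rose and 1 fell (6.05% of all genes). Without the array that stood apart 1 was again called lower (10.8%), and with the replicate block 3 were (8.64%), PSMB9 among them. PSME2, a subunit of the PA28 activator that opens the proteasome, read 15.03, 15.37 and 15.49 in NCE and 14.60, 14.55 and 14.52 in CYGB+. The 3 CYGB+ replicates lay within 0.08 of each other and below all of NCE. Its log2 fold change of -0.75 (adjusted p = 0.0309) was -0.73 with slide as a block (adjusted p = 0.238), -0.60 on slide 2 alone, -0.88 without the array that stood apart (adjusted p = 0.0117) and -0.53 on scaling to the 75th percentile (adjusted p = 0.124). Leaving out a replicate kept the call in 2 of 6 fits (highest adjusted p = 0.13, without NCE replicate 3). PSME1, the other PA28 subunit, was named after its values were seen: it stood at -0.85 (adjusted p = 0.0705), and it was called with slide as a block (-1.34, adjusted p = 0.0184) and with the replicate block (adjusted p = 0.0414), and not without the array that stood apart (-0.81, adjusted p = 0.0536). PSMB10, the remaining inducible catalytic subunit, had a log2 fold change of 0.22 (limma adjusted p = 0.369). It was 0.18 without that array, 0.00 with slide as a block, 0.07 on slide 2 alone and 0.39 on scaling to the 75th percentile.

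The constitutive catalytic subunits, which PSMB8, PSMB9 and PSMB10 replace, had 0 of 3 called. Of all genes, 6.12% were called higher and 6.05% lower. PSMB5 read 13.84, 14.11 and 13.71 in NCE and 12.21, 13.30 and 13.08 in CYGB+. Every CYGB+ replicate was lower, and replicate 1 lay farthest out. PSMB5 had a log2 fold change of -1.02 (adjusted p = 0.0572), which was called with the replicate block (adjusted p = 0.0232) and without the array that stood apart (-0.71, adjusted p = 0.0146); it was -0.73 with slide as a block (adjusted p = 0.728) and -0.74 on slide 2 alone. PSMB6 (-0.13) and PSMB7 (-0.05) were not called, and both turned sign with slide as a block (0.05 and 0.18) and without the array that stood apart (0.12 and 0.14). Cytosolic peptidases had 0 of 8 genes called and a median of -0.09. Without that array these were 0 of 8 and -0.08, where 10.4% of all genes were called higher and 10.8% lower. On scaling to the 75th percentile 1 was called higher, where 707 of 12144 genes were.

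Among further class I genes, HLA-F was not called either. It stood at 0.00 by the brightest probe (0.24 without the array that stood apart) and at 0.81 (adjusted p = 0.127) by the other. The 5 heavy chain genes of the list included HLA-B, HLA-C and HLA-E. Their median was -0.13, which is the value of HLA-C. This median was 0.07 on scaling to the 75th percentile, 0.06 with slide as a block and -0.17 without that array. Class I-like molecules had 0 of 6 genes called with a median of 0.31, and class II genes 0 of 5 with a median of 0.09. Neighbouring genes of the MHC region had 0 of 15 called with a median of 0.21. Of all genes, 6.12% were called higher and 6.05% lower. Without the array that stood apart these lists had 0, 1 and 4 genes called higher (10.4% of all genes) and 0 called lower (10.8%), with medians of 0.29, 0.29 and 0.26. With the replicate block 1 class II gene was called higher, and of the neighbouring genes 1 was called higher and 1 lower (8.58% and 8.64% of all genes).

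Regulators of the 9 genes were examined next. NLRC5, the transactivator of class I genes, had a log2 fold change of 0.07 (adjusted p = 0.859; 0.17 without the array that stood apart) and was well above background on 14 of 15 arrays. IRF1 stood at -0.26 (adjusted p = 0.332), which was -0.08 with slide as a block, -0.06 on slide 2 alone, -0.18 without that array and -0.37 to -0.16 when 1 replicate was left out. Class I transcription factors had 0 of 12 genes called by their brightest probe and a median of 0.19. Over all genes, 6.12% were called higher and 6.05% lower. Without the array that stood apart 0 of 12 were called, with a median of 0.16, where 10.4% of all genes were called higher and 10.8% lower.

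Interferon receptors and signalling genes had 1 of 12 called higher (6.12% of all genes) and 2 called lower (6.05%), with a median of -0.28; without the array that stood apart 1 was called higher (10.4%) and 6 lower (10.8%), with a median of -0.34. The 4 genes added there, named after their values were seen, were IFNAR1 (-0.58 with all arrays, adjusted p = 0.0955, and -0.91 without this one), IFNAR2 (-0.37, adjusted p = 0.248, and -0.53), JAK2 (-0.42, adjusted p = 0.159, and -0.59) and IRF9 (-0.85, adjusted p = 0.0525, and -1.03). IFNGR2, the signalling chain of the interferon-gamma receptor, read 9.20, 9.27 and 9.58 in NCE and 8.05, 8.40 and 8.35 in CYGB+. It fell in every CYGB+ replicate, with a log2 fold change of -1.09 (limma adjusted p = 0.0104). This held with slide as a block (-1.15, adjusted p = 0.0103), was -1.07 on slide 2 alone and was -1.13 without the array that stood apart. All 6 fits that left out a replicate kept the call, and a t-test lost it (adjusted p = 0.0536). STAT2, which acts with IRF9 downstream of the type I receptor, fell by 0.81 on the log2 scale (adjusted p = 0.0265). With slide as a block it was -0.83 (adjusted p = 0.0335), on slide 2 alone -0.70 and without the array that stood apart -0.81, and the call was lost without NCE replicate 2 or 3 or CYGB+ replicate 2 (highest adjusted p = 0.115). PTPN2, a phosphatase of JAK and STAT proteins, rose by 0.91 (adjusted p = 0.0347); this was 0.67 with slide as a block (adjusted p = 0.586), 0.72 on slide 2 alone and 0.69 without the array that stood apart, with 2 of 6 fits that left out a replicate keeping the call (highest adjusted p = 0.12, without NCE replicate 2), while its other 2 probes gave 0.20 and 0.15.

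Of 22 interferon-stimulated genes tested, 1 rose and 1 fell, where 743 and 735 of 12144 genes were called, and 18 had an estimate below 0, where 6016 of 12144 did. Without the array that stood apart 1 was called higher and 3 lower (10.4% and 10.8% of all genes), and with the replicate block 1 and 2 (8.58% and 8.64%). The median was -0.26, and -0.28 with slide as a block, -0.16 on slide 2 alone and -0.31 without the array that stood apart, against 0.00, -0.04, -0.03 and 0.01 over all genes. IRF7, a transcription factor of the type I response, read 11.26, 11.13 and 11.41 in NCE and 10.39, 10.37 and 10.36 in CYGB+. Its log2 fold change of -0.89 (adjusted p = 0.011) held with slide as a block (-0.94, adjusted p = 0.0108), was -0.93 on slide 2 alone and -0.86 without the array that stood apart, and was lost only without NCE replicate 3 (adjusted p = 0.0583) among the 6 fits that left out a replicate. OASL, an antiviral interferon-stimulated gene, moved the other way: 7.58, 7.34 and 7.64 in NCE and 9.29, 8.33 and 8.51 in CYGB+. It rose by 1.19 (limma adjusted p = 0.0278), with 0.90 under the slide block (adjusted p = 0.186), 0.91 on slide 2 alone and 1.15 without the array that stood apart. The call was lost without any 1 of the NCE replicates (highest adjusted p = 0.11) and with the deposited value table (0.97, adjusted p = 0.101). Among 6 immune ligands only NECTIN2, a ligand of the DNAM-1 and TIGIT receptors, was called, at -0.79 (limma adjusted p = 0.0377). Its other probe gave -0.45 (adjusted p = 0.184). The brightest probe gave -0.57 under the slide block (adjusted p = 0.372), -0.59 on slide 2 alone and -0.67 without the array that stood apart. On scaling to the 75th percentile it was -0.65 and not called (adjusted p = 0.0582). The call was kept in 1 of 6 fits that left out a replicate (highest adjusted p = 0.145, without NCE replicate 3).

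**Figure D4:**
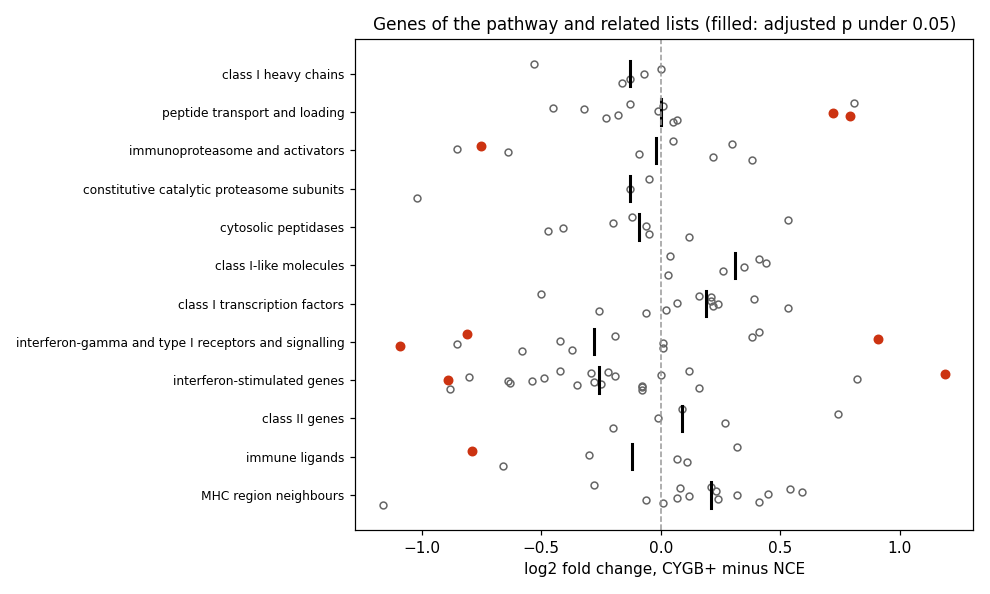
Log2 fold change (CYGB+ minus NCE) of each tested gene by its brightest probe, in rows by list, with filled points for limma adjusted p under 0.05, black bars for the median of each list and a dashed line for the median of all genes tested (0.00). None of the 9 genes is filled, and CANX (0.79), ERAP2 (0.72) and PSME2 (-0.75) are the filled points in the rows of peptide loading and the immunoproteasome.

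Among the marker lists, the fibroblast list had 1 of 3 tested genes called, COL1A2, at -2.53 (limma adjusted p = 0.00104). It was -2.80 with slide as a block, -2.81 on slide 2 alone and -2.50 without the array that stood apart. With normexp background correction it was -1.33. The squamous, leukocyte and endothelial lists had 0 of 10, 0 of 2 and 0 of 1 called. The other 2 fibroblast genes, named after their values were seen, had higher means in CYGB+: COL1A1 at 0.23 (adjusted p = 0.725; -0.30 with slide as a block and -0.60 on slide 2 alone) and FAP at 0.62 (adjusted p = 0.098), whose groups did not overlap and which was called without the array that stood apart (0.80, adjusted p = 0.00802). Over all genes, 6.12% were called higher and 6.05% lower with all arrays. Without the array that stood apart 1 squamous gene was called lower (10.8% of all genes). With the replicate block 1 squamous gene was called higher and 1 lower (8.58% and 8.64% of all genes). Their part in the values of the 9 genes was not tested.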

How the data were processed

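RNA of 15 arrays was read on Agilent 2-colour gene expression slides. The scanner files hold spot intensity, which per the file headers Feature Extraction 10.7.3.1 had corrected for background and dye. The deposited value table holds natural log values whose centring reference was not stated; its array medians ranged from -0.161 to 0.183, and it served only as an alternative. The labels give Cy3 for every sample while the methods give Cy5 for the control, so green was used per the labels and red entered no comparison of the groups.

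Spots marked as outliers by the software were left out, the spots of a probe were averaged, and log2 values were quantile normalized and averaged over the arrays of each biological replicate. Of 42405 probes, 27310 carried a RefSeq accession and 25422 could be named through RefSeq. Dim probes were filtered out, which left 19785 probes of 12144 genes, and each gene was represented by its brightest probe. Groups were compared with limma 3.58.1 in R 4.3.3, with Benjamini-Hochberg adjustment and a call at an adjusted p under 0.05. Tables and figures used Python 3.11.15, pandas 2.3.3, numpy 2.4.6 and matplotlib 3.10.9.

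Deviations of same-numbered replicates from their group means correlated between the groups at 0.24, 0.262 and 0.329 (NCE replicate 2 was matched best by CYGB+ replicate 3, the others by their own number), so the replicate numbers were taken to pair the samples, and a fit with a replicate block was run as an alternative. Slide as a block was fitted over single arrays with the replicate as a random block. Other alternatives were scaling to the 75th percentile, normexp background correction (offset 50), the signal before dye normalization, the deposited value table, no filter or a filter on all 15 arrays, slide 2 alone, each replicate left out, a t-test, and the mean of all probes of a gene. The files held no mean spot signal, so normexp used the median spot signal. Fits without array 1 of CYGB+ replicate 1, without array 2 of NCE replicate 3 and without both were added after seeing the data.

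Genes named are the 9 genes and CYGB, up to 4 called genes per list with the largest change, fixed comparison genes (IRF1, NLRC5, HLA-F, PSMB10, PSMB5, PSMB6 and PSMB7), and the 5 genes most like the mean of the 9. Marker genes, and genes named after their values were seen, stand outside this rule. Some genes of the planned lists are not reported here and were taken out of the lists. The members and lists were chosen with earlier results of these data known.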

Additional observations from a re-analysis of the deposited data

Results flagged for a closer look

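Of 22 sets of array values examined, 5 held an array far from the others, where chance flags about 1 in 20 if arrays are independent. The arrays are repeats of 3 biological replicates per group, and all 5 came from the 2 arrays named here, so they are not separate events. Array 1 of CYGB+ replicate 1 had the lowest TAP1 (10.88, nearest 11.40) and PSMB8 (9.0, nearest 9.84) of the 6 CYGB+ arrays, and the SD of its deviations from the probe means was 1.02 (nearest 0.53 among the CYGB+ arrays). Array 2 of NCE replicate 3 had the lowest HLA-E (12.76, nearest 13.17) and TAPBP (11.97, nearest 12.20) of the 9 NCE arrays. The causes were not tested.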

How the results depend on the processing

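Probes called higher (1239) and lower (1063) numbered 764 and 680 with the deposited value table, 633 and 563 with no filter on dim probes, 292 and 426 with slide as a block, 59 and 38 on slide 2 alone, 457 and 369 with a t-test, 2073 and 1913 without array 1 of CYGB+ replicate 1, 2171 and 1974 without both arrays that deviated, and 366 to 1139 and 286 to 990 when 1 replicate was left out. With the replicate block, 1809 were higher and 1685 lower. The 10 calls in the gene lists, which also hold the 9 genes, became 16 with normexp, 3 with no filter and 20 with the replicate block. They became 5 with slide as a block, 3 with a t-test, 16 with the mean of all probes and 2 to 13 when 1 replicate was left out. Without array 1 of CYGB+ replicate 1 there were 25, and without both arrays 28. The fits without arrays were chosen after seeing the data. Of the 9 genes, 1 was called with normexp (TAP1) and 1 with the replicate block (PSMB9, adjusted p = 0.0341), which changed no other call among them.

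Among the genes named by rule, estimates that turned sign were, on scaling to the 75th percentile, HLA-B 0.03, HLA-C 0.07, HLA-E 0.11, TAPBP 0.01, CYGB 0.11, PSMB6 0.08 and PSMB7 0.16; with slide as a block, HLA-B 0.10, HLA-E 0.06, TAP2 -0.09, NLRC5 -0.06, PSMB6 0.05 and PSMB7 0.18; on slide 2 alone, HLA-B 0.25, HLA-C 0.13, HLA-E 0.03, TAP2 -0.05, PSMB6 0.04 and PSMB7 0.21. With the value table they were TAPBP 0.02, CYGB 0.05, PSMB6 0.09 and PSMB7 0.12, and NLRC5 was -0.02 with normexp and -0.02 before dye normalization. Without array 1 of CYGB+ replicate 1 they were HLA-E 0.07, B2M -0.03, TAP2 -0.13, PSMB8 0.05, PSMB6 0.12 and PSMB7 0.14, and without both arrays HLA-E 0.02, TAP2 -0.09, PSMB8 0.02, PSMB6 0.07 and PSMB7 0.11. Leaving out 1 replicate gave HLA-B -0.35 to 0.02, HLA-C -0.30 to 0.02, HLA-E -0.31 to 0.05, B2M -0.22 to 0.21, TAP2 -0.15 to 0.15, PSMB8 -0.28 to 0.11, CYGB -0.30 to 0.23, NLRC5 -0.12 to 0.22, PSMB6 -0.32 to 0.13 and PSMB7 -0.18 to 0.16. On scaling to the 75th percentile the median of all genes tested was 0.07, against 0.00 in the main fit. The cause of the turned signs was not tested. PSMB8 was not in the value table. The slide cannot be told apart from the group for NCE replicates 2 and 3, which lay on slide 1 only.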

Other observations

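Some further probes of listed genes were called where the brightest probe of the gene was not: IFIT2 at -1.08 (adjusted p = 0.00636), IFNAR2 at -0.67 (adjusted p = 0.0408) and -1.10 (adjusted p = 0.00508), and NFYC at 0.75 (adjusted p = 0.0299). They were named after their values were seen.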
